A study of Homo sapiens with 30 samples.

Results

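Gene expression in untreated cultures labelled OCI-LY3 was set against that in 3 other human diffuse large B cell lymphoma lines, HT, OCI-LY19 and SUDHL5. The comparison used the 12 libraries taken at 0 h from a series of 30: 3 labelled OCI-LY3 against 3 each of HT, OCI-LY19 and SUDHL5, all without drug and labelled wild type. The labels describe 3 independent experiments per group and STR-authenticated lines, with more serum in the medium of OCI-LY3 and HT than in that of OCI-LY19 and SUDHL5. Each group is 1 line, so a p-value measures the spread between cultures of these lines and not between lymphomas. A further 12 libraries of the same lines, after 24 h in 0.2 µM doxorubicin, entered only where named. OCI-LY3 was compared with the mean of the 3 other line means and with each line separately.

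Diffuse large B cell lymphoma is a tumour of mature B cells with 2 main expression types. The germinal center type keeps the genes of B cells that divide and diversify their receptors in the germinal center, with BCL6 as their repressor. The activated B cell type carries the genes of cells leaving that stage, with high IRF4, constant NF-kB activity through MALT1 and MYD88, and secretion of IL6 and IL10 that acts through STAT3. OCI-LY3 is known in the field as a line of the activated type, while HT, OCI-LY19 and SUDHL5 are known as germinal center lines.

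The libraries labelled OCI-LY3 did not carry the genes for which that line is known. IRF4, the transcription factor that marks the activated type, had 0.0390, 0.399 and 0.0732 FPKM there, from 6, 62 and 11 reads, against 0 to 3.99 FPKM in the 9 other libraries (median 0.156). FPKM is the read count scaled for gene length and library depth. No read of IL6, IL10 or SOCS3, a STAT3 target, was found in any of the 3 libraries labelled OCI-LY3, which allows up to 0.0567, 0.0341 and 0.0429 FPKM per library for counting error alone. TNFRSF13B, a receptor of B cell survival factors used to classify the activated type, had 0, 0.0213 and 0 FPKM, against 0 to 0.582 FPKM in the 9 others (median 0.0217). CCND2, a G1 cyclin of the activated type, had 0.177, 0.308 and 0.157 FPKM, against 0 to 0.0285 FPKM elsewhere.

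Of the 8 genes used to classify the activated type, 7 passed the filter on low values (3 or more of the 12 libraries at 1 FPKM or above). Of these, 0 were higher and 7 lower than the mean of the 3 lines, where 26.4% and 44.5% of all genes tested were. From all 3 lines in one direction, 0 differed. A gene near 0 in OCI-LY3 passes this filter only through other lines and can then hardly be called higher. The filter thus partly sets this tally, from which no conclusion is drawn. Line by line, 2 were higher and 2 lower than in HT, 0 and 5 than in OCI-LY19, and 2 and 4 than in SUDHL5. A test on recovered reads (limma voom) gave 1 higher and 3 lower. Their summed level was 11.4 to 14.0 FPKM in the libraries labelled OCI-LY3, while HT had 16.1 to 18.2, OCI-LY19 39.3 to 42.3 and SUDHL5 88.8 to 98.5. Germinal center genes were present. Among the 7 genes that classify the germinal center type, 5 were higher and 1 lower than the mean of the 3 lines, where 26.4% and 44.5% of all genes were. Than in each line, 1 was higher and 1 lower (14.3% each), against 9.42% and 13.4% of all genes. Against HT 3 were higher and 4 lower, against OCI-LY19 6 and 1, and against SUDHL5 1 and 4. The summed level was 206 to 257 FPKM in OCI-LY3, while HT had 265 to 277, OCI-LY19 24.9 to 29.9 and SUDHL5 297 to 308. The near absence of IRF4, IL6, IL10 and TNFRSF13B goes against the type the name stands for, and the libraries are called by their label here. Whether the cultures were the named line was not tested.

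General B cell genes were present. Of 6 B cell markers, 2 (MS4A1 and CD22) were higher and 0 lower than in each line, against 9.42% and 13.4% of all genes. Line by line, 2 were higher and 2 lower than in HT, 4 and 2 than in OCI-LY19, and 3 and 1 than in SUDHL5. Their sum rests most on the most abundant members. The 6 B cell markers, among them MS4A1, CD79A, CD79B, PAX5 and CD22, summed to 1255 to 1507 FPKM in OCI-LY3, while HT had 1038 to 1059, OCI-LY19 383 to 435 and SUDHL5 1011 to 1017. Markers of other cell types were scarce. Over 10 T and NK cell markers the sum was 5.72 to 6.40 FPKM, of which TRAC, the constant region of the T cell receptor alpha chain, averaged 4.41 ± 0.639 (SD, n = 3), and 3 were at 0 in all 3 libraries. HT had 3.43 to 5.37 FPKM of these markers, OCI-LY19 24.8 to 28.4 and SUDHL5 165 to 172. In bulk RNA, fewer cells that express a gene and less of its RNA per cell cannot be told apart. Myeloid markers summed to 0.0821 to 0.199 FPKM and stromal, epithelial and endothelial markers to 0.632 to 2.86 FPKM.

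Across the genome the 4 lines differed in most genes tested, so a single call says little. Of 15650 genes, 26.4% were higher and 44.5% lower in OCI-LY3 than the mean of the 3 lines (limma, adjusted p below 0.05). Against HT 23.4% were higher and 43.5% lower, against OCI-LY19 27.8% and 38.9%, and against SUDHL5 33.1% and 37.5%. Higher than in each of the 3 lines were 1474 genes (9.42%), of which 315 differed from every line by at least 2-fold, and lower than in each were 2095 (13.4%), of which 248 did so. All 3 libraries lay above all 9 others for 9.59% of the genes and below them for 14.8%. The share of higher calls among all calls was 37.2% against the mean of the lines and 41.3% against all 3 lines, but 48.0% and 58.3% after median-of-ratios scaling and 47.6% and 56.4% after quantile normalization. Against HT that share was 34.9%, 51.0% and 47.1% under the 3 scalings. The median difference over all genes was -0.144 on the log2 scale, and -0.0239 and -0.0236 under those 2 scalings, so small differences are read against it.

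Across these genes the profile of OCI-LY3 was nearest to HT (r = 0.874 between line means of log2 values), then SUDHL5 (r = 0.851) and OCI-LY19 (r = 0.81), a description over genes, which are not replicates. The 3 libraries labelled OCI-LY3 had 25565898 to 26395456 recovered reads and the other 9 had 21785426 to 35270765. Between OCI-LY3 replicates the range was at least 2-fold for 60 of 4675 genes with a mean of at least 10 FPKM (1.28%), against 0.329% in HT, 1.54% in OCI-LY19 and 0% in SUDHL5. Replicates of SUDHL5 were almost as close as repeat draws of reads (median ratio of the variance between libraries to that of counting 1.28, against 7.90 in OCI-LY3), and whether they came from separate cultures was not tested. Library names carry a suffix of unstated meaning (L4 and L5 in OCI-LY3). SUDHL5 is all L3, so there the suffix and the line cannot be told apart. OCI-LY19 shares L4 and L5 with OCI-LY3 and L6 with HT, which is all L6. Names outside SUDHL5 also open with a tag of unstated meaning, mostly shared by libraries of the same replicate number. No fit used this tag as a term. In a fit that both left out SUDHL5 and added the suffix as a term, 2368 genes were higher and 3758 lower in OCI-LY3 than in HT, against 3656 and 6812 in the fit of all 12 libraries without the term. Against OCI-LY19 that fit gave 3737 higher and 5104 lower, against 4350 and 6092. Which of the 2 changes moved the counts was not tested.

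The higher genes with the widest gap to every line were low or absent elsewhere. The 12 leading higher genes were ranked by their smallest difference from any line, and a gene named for this rank was higher in all 3 libraries than in all 9 others. NSG1, an endosomal protein of neurons (chromosome 4, 4348140 to 4419058, GRCh38), had 31.1, 29.3 and 32.9 FPKM in OCI-LY3, against 0.0179 to 0.0885 FPKM in the 9 others (median 0.0632). It differed by 4.92 ± 0.05 (SE) on the log2(FPKM + 1) scale (limma adjusted p = 3.17e-13). EYA2, a transcriptional coactivator and phosphatase of development, had 28.2, 27.9 and 28.7 FPKM, against 0 to 0.243 FPKM, a difference of 4.78 ± 0.07. The groups lay far apart for both genes. THY1, a surface glycoprotein of T cells, neurons and stroma, had 22.8, 28.0 and 21.0 FPKM, against 0 to 0.0223 FPKM. Its overlapping transcript THY1-AS1 had 81.1 to 113 FPKM, against 0 to 0.061, and the strand setting of the counting is not given, so the reads of this pair may be mixed.

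HTR3A, a serotonin-gated ion channel subunit, had the highest level of the 12, with 78.3, 90.4 and 72.2 FPKM in OCI-LY3, against 0 to 4.26 FPKM, most of it in HT (3.12 ± 0.986). CSF2RB, the shared signalling chain of the receptors for IL3, IL5 and GM-CSF, had 17.1, 20.9 and 13.4 FPKM, against 0.0307 to 0.942 FPKM. ALKBH3, a DNA and RNA demethylase, had 10.5, 9.52 and 10.3 FPKM, against at most 0.0162 FPKM. Only ALKBH3 of these 3 was practically without reads in every other library. The other higher genes of the rank were EEF1A2, a tissue-restricted elongation factor (21.6 ± 3.96 FPKM), NUDT11, a phosphohydrolase of inositol phosphates (12.9 ± 1.04), PSMA8, the testis proteasome subunit (38.4 ± 4.18), SERPINI1, a protease inhibitor of neurons (22.6 ± 1.20), PODXL2, a sialomucin (50.1 ± 1.28), and VCL, the adhesion protein vinculin (18.4 ± 0.931). Their 9 other libraries reached at most 7.76 FPKM.

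**Figure D1:**
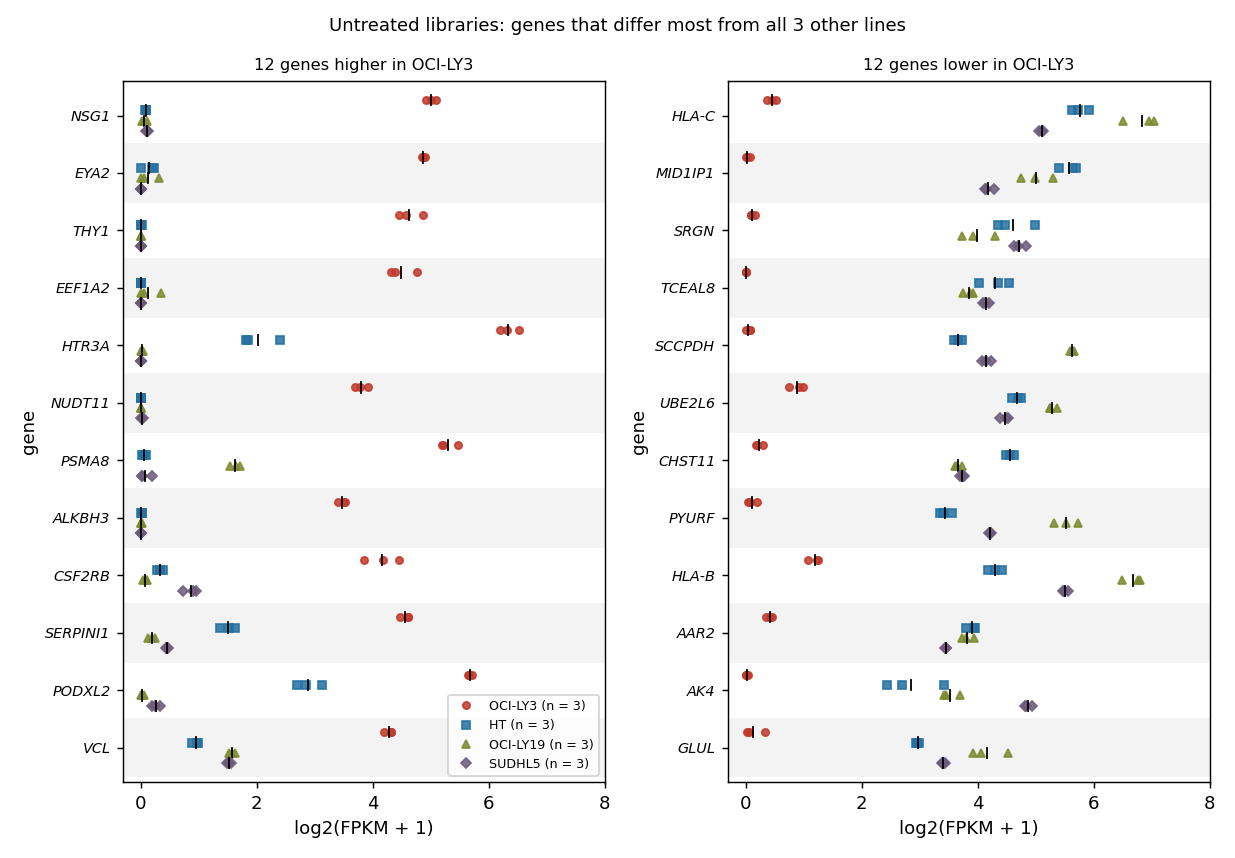
Levels of the 12 leading higher and 12 leading lower genes in each untreated library, as log2(FPKM + 1); points are libraries (n = 3 per line), black ticks the mean of the log2 values. OCI-LY3 stands to the right of all others in the first panel and to the left in the second, with THY1 at 21.0 to 28.0 FPKM against at most 0.0223 and TCEAL8 at 0 against 12.4 to 22.3.

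Leading lower genes were low or without reads in OCI-LY3 and present in each other line. HLA-C, an MHC class I heavy chain, had 0.366, 0.438 and 0.296 FPKM, from 24, 29 and 19 reads, against 32.5 to 131 FPKM elsewhere (median 52.3), a log2 difference of -5.45 ± 0.10 (limma adjusted p = 1.02e-11). TCEAL8, a relative of an elongation factor on chromosome X, had no read in any of the 3 libraries, against 12.4, 16.0 and 22.3 FPKM as the lowest, median and highest elsewhere. Set against 3 reads per library, its level was at least 138-fold lower than in the lowest of the other lines. MID1IP1, a regulator of fatty acid synthesis, had 0.0504, 0.0200 and 0 FPKM, against 16.4 to 50.7 FPKM. SRGN, the core protein of secretory granule proteoglycans in blood cells, had 0.0628, 0.125 and 0.0643 FPKM, against 12.3 to 30.8 FPKM. Lack of overlap between the groups was a condition of this rank.

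The rest of the lower rank were SCCPDH (0.0355 ± 0.0308 FPKM), UBE2L6, a conjugating enzyme of the interferon-induced modifier ISG15 (0.857 ± 0.155), CHST11, a chondroitin sulfotransferase (0.175 ± 0.0511), PYURF (0.0778 ± 0.0605), HLA-B (1.29 ± 0.149), the splicing factor AAR2 (0.334 ± 0.0515), the mitochondrial adenylate kinase AK4 (0.0151 ± 0.0173) and glutamine synthetase GLUL (0.104 ± 0.134). Elsewhere these 8 had 4.43 FPKM or more in each library. With at least 10 FPKM in each library of 1 line and under 1 FPKM in the 9 others, OCI-LY3 had 11 genes of its own, HT 20, OCI-LY19 62 and SUDHL5 26. Under 1 FPKM in OCI-LY3 and at 10 FPKM or more in all 9 others were 8 genes, against 6 for HT, 37 for OCI-LY19 and 6 for SUDHL5.

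Counting genes lower than in each of the 3 lines, MHC class I genes had the largest share (50%) of the lists examined. Class I molecules show peptides from inside the cell to cytotoxic T cells, with a heavy chain (such as HLA-B or HLA-C), the light chain B2M, the peptide pump TAP1 and TAP2, the immunoproteasome subunits PSMB8, PSMB9 and PSMB10, and NLRC5, which switches their genes on. The proximal promoters of HLA-B and HLA-C are shown because these genes, both near 0 in OCI-LY3, lie on the minus strand of chromosome 6 within the same complex. The sequences are the 250 bases before the RefSeq start (GRCh38.p14, 5′ to 3′ on the gene's strand), at chr6:31357180-31357429 for HLA-B and chr6:31272093-31272342 for HLA-C. Capitals mark matches to a kappa B element (GGGATTCC) and to an inverted CCAAT box (ATTGG), on either strand.
HLA-B: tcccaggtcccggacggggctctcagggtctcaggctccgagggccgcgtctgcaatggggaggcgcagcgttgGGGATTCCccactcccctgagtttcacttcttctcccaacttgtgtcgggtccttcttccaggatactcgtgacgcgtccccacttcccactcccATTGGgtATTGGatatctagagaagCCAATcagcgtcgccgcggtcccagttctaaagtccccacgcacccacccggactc
HLA-C: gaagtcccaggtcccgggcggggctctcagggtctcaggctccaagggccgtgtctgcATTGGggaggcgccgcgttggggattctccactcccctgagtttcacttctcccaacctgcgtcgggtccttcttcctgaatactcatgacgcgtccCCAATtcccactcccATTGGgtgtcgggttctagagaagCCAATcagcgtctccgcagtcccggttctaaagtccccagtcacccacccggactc
The 2 promoters were identical at 226 aligned bases (89%). The HLA-B window held 1 kappa B match and 3 CCAAT matches, and that of HLA-C held 0 and 4. The letters searched for an interferon response element (GAAANNGAAA) were found in neither window. Looser forms of that element were not searched, so its absence is not shown. No pair of these motifs overlapped. Among 35116 promoter windows of this length, 0.948% held the kappa B letters, 32% the CCAAT letters and 3.02% the interferon letters.

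HLA-B had 1.39, 1.35 and 1.12 FPKM in OCI-LY3, against 17.2 to 110 FPKM in the 9 others (median 43.7). All 3 libraries lay below every other library, with HT the nearest line at 18.8 ± 1.53 and OCI-LY19 the farthest at 102 ± 11.8. Of the 18 class I genes tested 9 were lower and 1 higher than in each of the 3 lines, against 13.4% and 9.42% of all genes, and their median log2 difference from the mean of the lines was -0.88, against -0.144 over all genes. Lower were also HLA-F (0.00588 ± 0.00509 FPKM), TAP1 (3.45 ± 0.167 FPKM, against 5.16 to 10.9), PSMB8 (10.5 ± 1.78, against 17.0 to 32.2), PSMB9 (3.37 ± 0.651, against 11.6 to 19.6), PSMB10 (5.06 ± 0.256, against 5.78 to 14.5) and NLRC5 (0.445 ± 0.134, against 0.812 to 12.5). The call for PSMB10 was lost under median-of-ratios scaling and quantile normalization, and that for NLRC5 under quantile normalization or with SUDHL5 counted as 1 library. The light chain gene B2M had 52.1, 49.8 and 48.2 FPKM, within the 29.7 to 102 FPKM of the others (log2 difference -0.03, limma adjusted p = 0.697). Against the average of HT and OCI-LY19 alone it was lower by a small margin (-0.188, limma adjusted p = 0.0164). TAP2 was higher, at 1.87 ± 0.379 FPKM against 0.487 to 1.45, but 8 of the 12 omissions of a single library ended that call (largest limma adjusted p = 0.155, without OCI-LY3 replicate 2). HLA genes vary between people and share sequence, and the annotated span of HLA-B covers HLA-C, so their levels depend on how reads were placed, and the part of this in the difference was not tested.

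MHC class II genes, which show peptides to helper T cells, stood at the other end. Of 16 tested, 15 were higher and 1 lower than the mean of the 3 lines, against 26.4% and 44.5% of all genes. Higher than in each line were 6 and lower 1, against 9.42% and 13.4% of all genes. Line by line, 12 were higher and 3 lower than in HT, 15 and 1 than in OCI-LY19, and 8 and 4 than in SUDHL5. Their summed level was 1660 to 1725 FPKM in OCI-LY3, under the 1895 to 1932 of SUDHL5. HT had 554 to 618 and OCI-LY19 513 to 527. HLA-DPA1 had 49.8, 46.7 and 48.1 FPKM in OCI-LY3, against 6.40 to 32.3 FPKM (median 14.1). HLA-DOA, a modulator of peptide loading, had 4.80, 4.49 and 3.37 FPKM, against 0.228 to 2.63 FPKM (median 0.462). These were the 2 calls that held under every alternative. HLA-DQA1 had 54.8, 58.0 and 44.6 FPKM, against 3.73 to 40.5 FPKM, and HLA-DPB1 11.4, 11.1 and 12.6 FPKM, against 1.60 to 9.94 FPKM. SUDHL5 was close behind for both, and omission of 1 library ended these calls (largest limma adjusted p = 0.0675 for HLA-DQA1 without OCI-LY3 replicate 2, and 0.0561 for HLA-DPB1 without OCI-LY3 replicate 3). The master regulator CIITA had 6.29 ± 1.04 FPKM, against 3.55 to 5.12, and its cofactor gene RFXAP 9.16 ± 0.587, against 6.10 to 8.38. Their calls were lost in 5 and 6 omissions of 1 library (largest adjusted p in limma 0.128 without OCI-LY3 replicate 2, and 0.149 without OCI-LY3 replicate 1). RFX5, which belongs to the same promoter complex, was lower at 24.2 ± 2.94 FPKM, against 27.6 to 46.2, but not under median-of-ratios scaling or quantile normalization. HLA-DRA, the most abundant chain, had 433, 397 and 410 FPKM, against 422 ± 3.54 in SUDHL5, 85.3 ± 4.46 in OCI-LY19 and 71.7 ± 8.47 in HT.

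**Figure D2:**
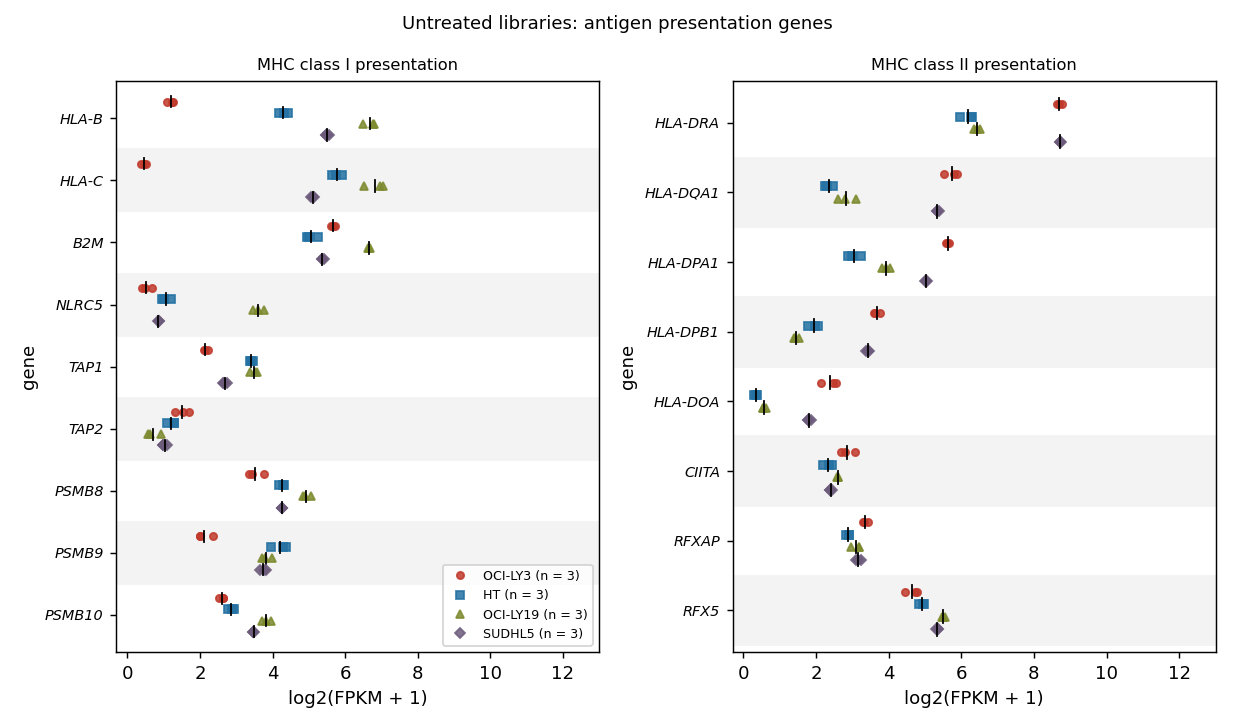
Levels of antigen presentation genes in each untreated library, as log2(FPKM + 1); points are libraries (n = 3 per line), black ticks the mean of the log2 values. OCI-LY3 lies lowest for HLA-C (0.296 to 0.438 FPKM) and HLA-B, within the other lines for B2M, and highest for HLA-DPA1 (46.7 to 49.8 FPKM).

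Among germinal center genes, STAP1, a signalling adaptor downstream of the B cell receptor, had 67.7, 59.2 and 49.7 FPKM in OCI-LY3, against 2 to 18.4 FPKM in the others (median 9.66). Its log2 difference was 2.72 ± 0.12 (limma adjusted p = 5.2e-09). RGS13, a brake on chemokine receptors, had 48.6, 53 and 37.9 FPKM, against 0.388 to 34.3 FPKM (median 28.3). MME, the surface peptidase CD10, had 33.5, 32.3 and 29.1 FPKM, against 15.4 to 22.1 FPKM (median 17.4). All 3 genes were higher in every library of OCI-LY3 than in any other, a condition for naming list genes by their difference. CD38, an ectoenzyme of germinal center and plasma cells, was at 26.3 ± 1.75 FPKM and SMARCA4, the ATPase of a chromatin remodeller, at 49.5 ± 5.80 FPKM, both higher than in each line.

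Other germinal center genes were shared with HT and SUDHL5 and missing in OCI-LY19. BCL6 had 79.4, 83.7 and 71.4 FPKM in OCI-LY3, against 131 ± 6.26 in HT, 102 ± 1.90 in SUDHL5 and 1.59 ± 0.580 in OCI-LY19. S1PR2, which confines B cells to the germinal center, had 68.2, 81.6 and 75.0 FPKM, against 44.6 ± 1.77, 83.5 ± 1.33 and 0.108 ± 0.0682 in HT, SUDHL5 and OCI-LY19. SERPINA9 (54.4 ± 17.1 FPKM in OCI-LY3) and the transcription factor MYBL1 (26.3 ± 5.05) had lower means than in HT and SUDHL5 and far higher ones than in OCI-LY19. MAML3, a Notch coactivator, was lower than in all lines at 0.501, 0.589 and 0.508 FPKM, against 3.10 to 6.14 FPKM. TCL1A, an AKT coactivator, was also lower, at 49.0 ± 7.69 FPKM against 96.8 to 150, and LMO2 had 1.09 ± 0.452 FPKM, against 15.0 ± 2.58 in OCI-LY19, 4.30 ± 0.270 in SUDHL5 and 0.0292 ± 0.0255 in HT. Of 19 further germinal center genes tested 4 were higher (21.1%) and 1 lower (5.26%) than in each line. Over all genes these shares were 9.42% and 13.4%. Line by line, 11 were higher and 8 lower than in HT, 15 and 3 than in OCI-LY19, and 8 and 7 than in SUDHL5.

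Of 23 further activated B cell genes tested, 1 was higher (4.35%) and 4 lower (17.4%) than in each line. Over all genes these shares were 9.42% and 13.4%. Against the mean of the 3 lines 10 were higher and 13 lower (43.5% and 56.5%), where 26.4% and 44.5% of all genes were. Line by line, 10 were higher and 7 lower than in HT, 8 and 11 than in OCI-LY19, and 4 and 14 than in SUDHL5. STAT3 had 4.12, 5.03 and 4.32 FPKM in OCI-LY3, against 6.52 to 26.3 FPKM in the others (median 14.8), a log2 difference of -1.42 ± 0.05 (limma adjusted p = 2.06e-09). The NF-kB cofactor NFKBIZ had 0.0583, 0.148 and 0.0464 FPKM, against 1.75 to 6.30 FPKM. CFLAR, which blocks death receptor signalling, had 0.637 ± 0.0654 FPKM, against 1.68 to 5.31, and the ectonucleotidase ENTPD1 0.578 ± 0.0794 FPKM, against 1.12 to 7.12. All 4 lay below every other library, the condition for naming list genes by their difference. IL16 was the higher gene, at 4.28, 4.57 and 3.60 FPKM against 3.38 ± 0.379 in OCI-LY19, and 4 omissions of a single library ended its call (largest limma adjusted p = 0.102, without OCI-LY3 replicate 2). CD44, a hyaluronan receptor, had 0.104 ± 0.118 FPKM, against 37.5 ± 4.59 in OCI-LY19 and at most 0.133 in the means of HT and SUDHL5. PRDM1, the regulator of plasma cell fate, had 0.0113, 0 and 0 FPKM.

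**Figure D3:**
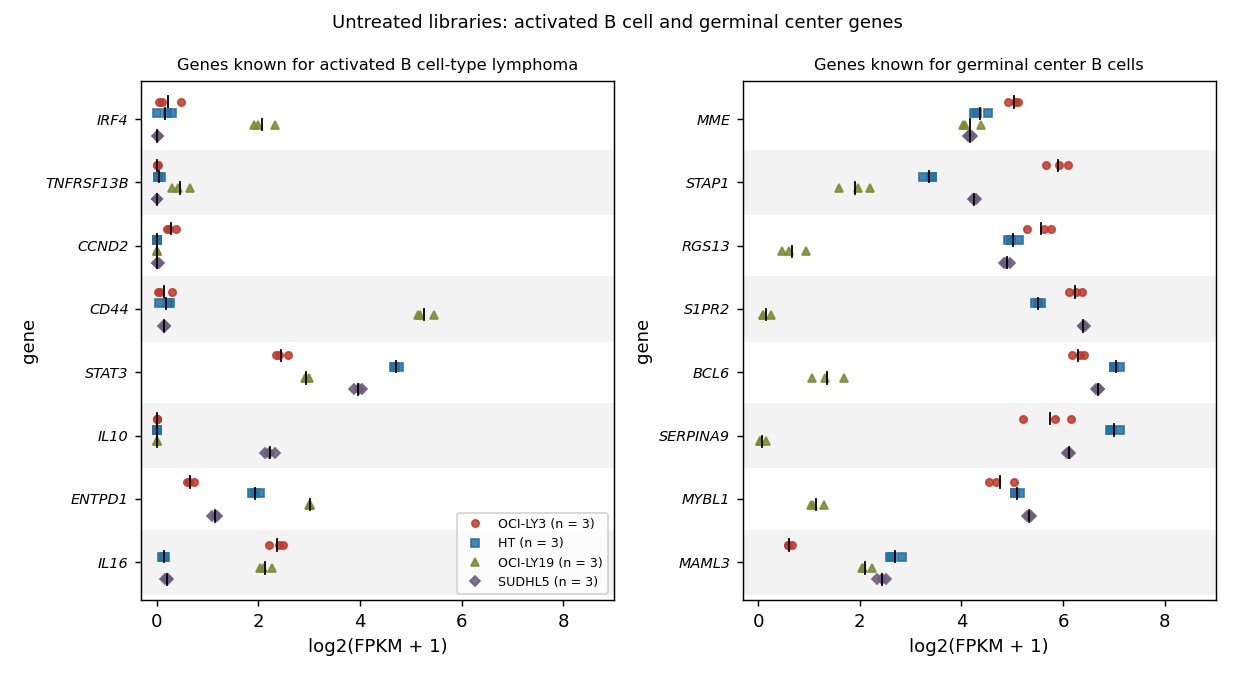
Levels of genes known for activated B cell-type lymphoma and for germinal center B cells in each untreated library, as log2(FPKM + 1); points are libraries (n = 3 per line), black ticks the mean of the log2 values. OCI-LY3 lies near 0 for IRF4 (0.0390 to 0.399 FPKM) and IL10 (0), below the others for STAT3, and above them for MME (29.1 to 33.5 FPKM) and STAP1.

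In the B cell receptor list, 8 of 26 genes tested were higher and 1 lower than in each line, against 9.42% and 13.4% of all genes. MS4A1, the surface antigen CD20, had 379, 455 and 323 FPKM in OCI-LY3, against 20.9 to 78.9 FPKM in the others (median 44.4), a log2 difference of 3.03 ± 0.13 (limma adjusted p = 5.98e-09). CD22, an inhibitory coreceptor, had 176, 200 and 139 FPKM, against 26.7 to 91.0 FPKM (median 71.0). VAV2, a guanine nucleotide exchange factor, had 20.9, 23.5 and 19.5 FPKM, against 0.0201 to 3.58 FPKM (median 1.71). These 3 genes showed no overlap, which naming list genes by their difference required. Also higher were the Fc receptor relative FCRL3 (12.6 ± 5.54 FPKM), the coreceptor CD72 (18.7 ± 5.30), the PI3K adaptor PIK3AP1 (84.5 ± 7.09) and the kinases BLK (57.4 ± 0.814) and BTK (47.4 ± 6.89). For BTK, HT was at 39.7 ± 0.361 FPKM, and 5 omissions of a single library ended the call (largest limma adjusted p = 0.111, without OCI-LY3 replicate 1). A pseudocount of 0.1 ended the call for BLK. CD81, a tetraspanin of the B cell coreceptor, was lower, at 32.2 ± 3.07 FPKM against 38.3 to 69.9.

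The immunoglobulin constant genes showed a switched heavy chain. IGHG4 had 159, 178 and 143 FPKM in OCI-LY3, against 0 to 0.559 FPKM elsewhere, and IGHG1 had 22.7, 25.4 and 20.7 FPKM, against 0 to 4.18 FPKM. The gamma genes are near copies, so reads may be split between them. IGHM had 0, 0.223 and 0.0209 FPKM, against 878 ± 12.5 in SUDHL5, 314 ± 9.09 in HT and 0.0657 ± 0.114 in OCI-LY19. The light chain was kappa: IGKC had 2157, 1977 and 1897 FPKM, against 3008 ± 77.7 in HT and at most 18.3 ± 0.877 in the 2 other lines. Its lambda counterpart IGLC3 was lower than in each line, at 4.57 ± 0.290 FPKM.

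Of 14 plasma cell genes tested, 5 were higher than in each line, as against 9.42% of all genes. JCHAIN, which links IgM and IgA units, had 407, 423 and 401 FPKM in OCI-LY3, against 0.147 to 196 FPKM (median 82.2). TNFRSF17, the APRIL receptor of plasma cells, had 11.3, 7.54 and 11.5 FPKM, against 0 to 2.95 FPKM. SEC11C, a signal peptidase subunit (33.7 ± 3.81 FPKM), MZB1, a chaperone of antibody assembly (83.5 ± 5.51), and FKBP11, a prolyl isomerase of the secretory pathway (8.75 ± 0.910), were higher too. The secretory regulator XBP1 was lower, with 6.13, 6.78 and 6.41 FPKM against 12.3 to 80.7 FPKM (median 23.6). TENT5C was called lower at 0.186 ± 0.00938 FPKM, which 10 omissions of a single library undid (largest limma adjusted p = 0.155, without OCI-LY19 replicate 3). Of 16 B lineage transcription factors tested, 3 were higher (18.8%) and 0 lower than in each line, against 9.42% and 13.4% of all genes. The higher ones were BCL11A (5.69 ± 0.823 FPKM, against 0.551 to 1.81), IKZF1 (33.1 ± 0.998, against 4.85 to 23.2) and MEF2C (23.3 ± 3.02, against 9.03 to 17.2).

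NF-kB genes moved in both directions. REL, the B cell subunit c-Rel, had 9.98, 10.3 and 7.57 FPKM in OCI-LY3, against 1.16 to 2.44 FPKM in the others (median 1.74), a log2 difference of 1.95 ± 0.10 (limma adjusted p = 1.51e-08). RELA, the other main activating subunit, was lower with 12.1, 12.1 and 12.9 FPKM against 14.4 to 19.9 FPKM, a call lost under median-of-ratios scaling. CYLD, a deubiquitinase that restrains the pathway, was lower at 1.66 ± 0.224 FPKM against 2.93 to 4.39. Upstream, TLR10, a Toll-like receptor of B cells, was higher at 33.7 ± 5.05 FPKM against 2.47 to 19.0, a call lost with SUDHL5 counted as 1 library. The kinase IRAK2 (0.320 ± 0.0873 FPKM), BCL10 (3.96 ± 0.268) and CASP8 (3.05 ± 0.260) were lower, and for CASP8 9 omissions of a single library ended the call (largest limma adjusted p = 0.13, without OCI-LY3 replicate 3). The call for BCL10 was lost under median-of-ratios scaling and quantile normalization. In the non-canonical arm, 0 of 14 genes were higher and 1 (7.14%) lower than in each line, against 9.42% and 13.4% of all genes. That gene was TRAF5 (6.52 ± 1.39 FPKM, against 8.16 to 12.2), though not in fits of 2 lines alone.

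Of 28 NF-kB target genes tested, 3 were higher (10.7%) and 1 lower than in each line, a higher share near the 9.42% of all genes. ICAM1, an adhesion ligand for T cells, had 15.9, 20.0 and 15.9 FPKM in OCI-LY3, against 0.111 to 4.91 FPKM (median 0.503). CD83, a surface marker of activated B cells, had 15.2, 21.3 and 16.4 FPKM, against 1.91 to 5.57 FPKM. PLEK, the cytoskeletal protein pleckstrin, had 77.9, 86.6 and 69.5 FPKM, against 50 ± 1.09 in SUDHL5, 9.60 ± 1.70 in OCI-LY19 and 0.183 ± 0.146 in HT, a call against all 3 lines that was lost with a pseudocount of 0.1. TNFAIP3, the brake A20, had 0.342, 0.679 and 0.444 FPKM, against 0.498 to 10.4 FPKM, overlapping HT. Among costimulatory ligands, CD86 (20.2 ± 2.75 FPKM, against 0.102 to 10.5) and CD48 (35.7 ± 1.27, against 1.29 to 16.6) were higher. CD70, the ligand of CD27, was lower with 0.474, 0.966 and 0.741 FPKM against 5.90 to 97.4 FPKM, and CD80 (0.0319 ± 0.0181) and the antiphagocytic signal CD47 (6.59 ± 0.755, against 9.09 to 19.4) were lower too. The follicle-homing receptor CXCR5 was higher, at 18.2 ± 2.64 FPKM against 1.51 to 9.68.

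Of 21 genes of IL6, IL10 and JAK-STAT3 signalling tested, 5 were lower and 3 higher than in each line, against 13.4% and 9.42% of all genes. JAK1 had 4.10, 4.48 and 3.67 FPKM in OCI-LY3, against 12.5 to 23.2 FPKM (median 16.3), and JAK3 had 0.0168, 0.0834 and 0.0344 FPKM, against 0.850 to 9.62 FPKM (median 4.35). IL6ST, the signalling chain of the IL6 receptor, had 0.215 ± 0.0443 FPKM, against 0.530 to 2.52. With STAT3, these genes lay below all other libraries. STAT5A was lower at 5.50 ± 0.454 FPKM against 6.43 ± 0.230 in SUDHL5, the nearest line, a call that 2 omissions of a single library ended (largest limma adjusted p = 0.0696, without OCI-LY3 replicate 1). Higher were the phosphatase PTPN2 (8.25 ± 0.518 FPKM, against 5.50 to 7.35), STAT6 (58.8 ± 8.45, against 25.6 to 47.9) and IL21R (9.11 ± 2.41, against 0.0562 to 6.71). Without OCI-LY3 replicate 2 the largest limma adjusted p was 0.0528 for STAT6 and 0.159 for IL21R, and for IL21R 8 omissions ended the call.

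Interferon-stimulated genes had 5 of 22 tested members lower and 1 higher than in each line, against 13.4% and 9.42% of all genes. Against the mean of the lines 17 were lower (77.3%) and 4 higher (18.2%), where 44.5% and 26.4% of all genes were. Against HT 8 were lower and 3 higher (median log2 difference -0.07), where 43.5% and 23.4% of all genes were. IFI35 had 0.234, 0.464 and 0.499 FPKM in OCI-LY3, against 2.95 to 7.81 FPKM (median 5.27), and IFI6, a mitochondrial survival protein, had 0.272, 0.0450 and 0.0929 FPKM, against 1.78 to 11.3 FPKM (median 2.75). The RNA sensor IFIH1 was at 0.0501 ± 0.0278 FPKM and the regulator IRF7 at 0.530 ± 0.235 FPKM, both below every other library, with the call for IRF7 lost when SUDHL5 was counted as 1. RIGI (0.504 ± 0.0845 FPKM) was called lower and the RNA sensor OAS1 (6.76, 6.91 and 3.93 FPKM, against 0.349 to 4.22) higher, but omissions of 1 library ended both calls (largest limma adjusted p = 0.103 for RIGI without HT replicate 2, and 0.107 for OAS1 without OCI-LY3 replicate 2).

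**Figure D4:**
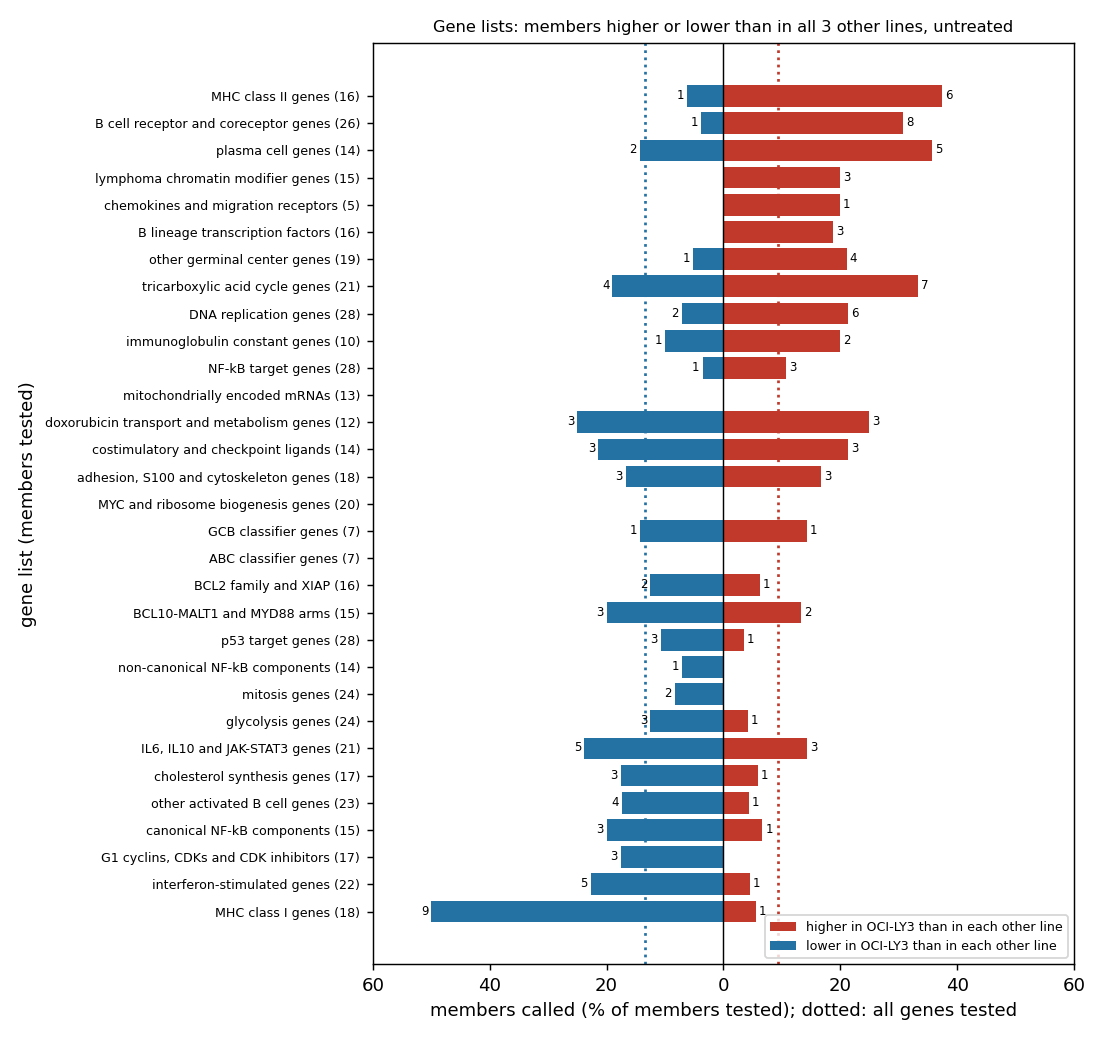
Share of the tested members of each gene list that were higher (red, right) or lower (blue, left) in untreated OCI-LY3 than in each of the 3 other lines, in percent, with the number of members at the bar ends. Dotted lines mark the shares over all 15650 genes, 9.42% and 13.4%; MHC class I genes reach furthest left (9 of 18) and MHC class II genes furthest right (6 of 16).

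Among G1 regulators, a CDK inhibitor, a cyclin and a pocket protein were lower than in each other line. CDKN1B, the CDK inhibitor p27, had 0.536, 0.812 and 1.31 FPKM in OCI-LY3, against 5.85 to 32.1 FPKM in the others (median 28.4), a log2 difference of -3.36 ± 0.10 (limma adjusted p = 2.93e-10). CCND3, the main G1 cyclin of germinal center B cells, had 13.9, 14.2 and 17.2 FPKM, against 55.0 to 100 FPKM (median 77.4). RBL2, a pocket protein of the RB family, was lower at 10.4 ± 1.46 FPKM against 14.4 to 21.5. These were the 3 lower of 17 such genes tested (17.6%, against 13.4% of all genes). Higher than in each line were 0 (3 after median-of-ratios scaling). Against the mean of the 3 lines, however, 9 were higher and 4 lower (52.9% and 23.5%), where 26.4% and 44.5% of all genes were. The p53 target CDKN1A had 0.743 ± 0.423 FPKM, against 23.8 ± 2.99 in OCI-LY19, 13.2 ± 0.410 in SUDHL5 and 0.151 ± 0.0246 in HT. Of 28 p53 targets tested 3 (10.7%) were lower than in each line, SESN1 (0.377 ± 0.0711 FPKM), TP53I3 (0.742 ± 0.0590) and CCNG1 (22.8 ± 1.38). The 1 higher (3.57%) was PMAIP1. Both shares were under the 13.4% and 9.42% of all genes. Quantile normalization ended the call for SESN1.

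PMAIP1, the death-promoting BCL2 relative NOXA, had 28.5, 31.5 and 27.9 FPKM in OCI-LY3, against 8.34 to 25.5 FPKM (median 11.2). BCL2L2, a survival member of that family, had 0.706, 0.608 and 0.552 FPKM, against 5.57 to 8.08 FPKM (median 6.98). BCL2 itself had 23.4, 24.0 and 18.2 FPKM, like OCI-LY19 (22.0 ± 0.621) and unlike SUDHL5 (0.307 ± 0.0207) and HT (0.230 ± 0.0715). MCL1 was called lower at 70.3 ± 5.22 FPKM against 73.5 to 173, a call lost in 3 omissions of a single library (largest limma adjusted p = 0.117, without OCI-LY3 replicate 3).

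Of 28 replication genes tested 6 were higher (21.4%) and 2 lower (7.14%) than in each line, against 9.42% and 13.4% of all genes. RFC3, a subunit of the clamp loader, had 104, 87.4 and 92.1 FPKM in OCI-LY3, against 30.0 to 63.6 FPKM (median 57.9), and its partners RFC2 (53.4 ± 5.25 FPKM, against 27.5 to 37.0) and RFC4 (38.2 ± 3.63, against 20.2 to 33.2) were higher as well. RRM2, which makes deoxynucleotides, had 53.8, 43.8 and 55.1 FPKM, against 12.9 to 40.0 FPKM. MCM7 and CDC6 were higher by small margins, at 190 ± 25.7 and 25.4 ± 0.946 FPKM, while MCM2 (51.2 ± 4.52, against 71.5 to 82.2) and CDC45 (20.0 ± 1.65, against 23.2 to 27) were lower. The call for RFC4 was lost without OCI-LY3 replicate 1 (limma adjusted p = 0.057), without HT replicate 2 (limma adjusted p = 0.056) and in the fit of all 24 libraries. That for MCM7 was lost under quantile normalization, that for CDC6 in the fit of all 24 libraries and with SUDHL5 counted as 1, and that for CDC45 under median-of-ratios scaling and in the fit of all 24 libraries. Mitosis genes gave 0 higher and 2 lower of 24 (8.33%, under the 13.4% of all genes), CDC25B (16.8 ± 3.01 FPKM, lost under median-of-ratios scaling) and CDC20 (53.5 ± 15.9), and CDC20 lost its call in 3 omissions (largest limma adjusted p = 0.087, without OCI-LY19 replicate 3). MYC had 115, 126 and 131 FPKM, against 173 ± 14.5 in OCI-LY19, 43.0 ± 8.04 in HT and 22.8 ± 1.08 in SUDHL5. None of 20 genes of MYC and ribosome biogenesis differed from all 3 lines in one direction by limma, while median-of-ratios scaling gave 3 higher.

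Of 21 genes of the tricarboxylic acid cycle tested, 7 were higher (33.3%) and 4 lower (19%) than in each line, against 9.42% and 13.4% of all genes. CS, citrate synthase, had 106, 102 and 107 FPKM in OCI-LY3, against 41.5 to 58.4 FPKM (median 49.5), a log2 difference of 1.08 ± 0.03 (limma adjusted p = 2.26e-10). IDH3A, an isocitrate dehydrogenase subunit (26.9 ± 1.26 FPKM), OGDH, which oxidises 2-oxoglutarate (60.8 ± 2.46), the succinyl-CoA ligase subunits SUCLG1 (20.5 ± 0.392) and SUCLA2 (9.53 ± 0.971), and malate dehydrogenase MDH2 (81.5 ± 7.89) were higher as well. For SUCLA2 the call was lost in 3 omissions of a single library (largest limma adjusted p = 0.108, without OCI-LY3 replicate 1). The lower ones were the cytosolic enzymes ACO1 (0.447 ± 0.0593 FPKM, against 1.25 to 3.13) and IDH1 (6.30 ± 0.404, against 7.99 to 16.7), and the mitochondrial DLST (22.9 ± 3.40) and SDHC (14.5 ± 0.710). The call for MDH2 was lost with SUDHL5 counted as 1 library and that for DLST under median-of-ratios scaling.

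Of 24 glycolysis genes tested, 3 were lower (12.5%) and 1 higher (4.17%) than in each line. These shares did not exceed the 13.4% and 9.42% of all genes. SLC2A3, a high-affinity glucose transporter, had 0.126, 0.281 and 0.219 FPKM in OCI-LY3, against 3.58 to 28.0 FPKM (median 5.19). PFKFB4, which sets the activator of phosphofructokinase, had 0.646 ± 0.113 FPKM, against 1.37 to 52.5 (a call lost under quantile normalization), and PFKM, a phosphofructokinase itself, was higher at 43.5 ± 1.70 FPKM against 19.1 to 30.9. GPI was called lower at 30.7 ± 2.21 FPKM against 33.5 to 70.5, and its smallest difference changed sign under median-of-ratios scaling and was lost in 7 omissions (largest limma adjusted p = 0.144, without OCI-LY3 replicate 2). In cholesterol synthesis 3 of 17 genes tested were lower (17.6%) and 1 higher (5.88%) than in each line. Among the lower were the squalene epoxidase SQLE (24.0 ± 3.03 FPKM, against 35.2 to 68.2) and the isomerase IDI1 (17.6 ± 1.72, against 24.4 to 49.0). SC5D was higher at 5.95 ± 0.431 FPKM against 2.21 to 3.17.

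Of 21 genes that bear on doxorubicin, 12 passed the filter on low values. Before any drug was given, 3 of these were higher and 3 lower than in each line (25% each), against 9.42% and 13.4% of all genes. TOP2B, 1 of the 2 topoisomerases that the drug poisons, had 65.6, 55.5 and 58.0 FPKM in OCI-LY3, against 86.8 to 268 FPKM in the others (median 135). Its log2 difference was -1.25 ± 0.07 (limma adjusted p = 3.2e-08). TOP2A, the other one, had 100, 66.8 and 94.0 FPKM, within the 66.0 to 122 FPKM of the others. The export pumps ABCC1 (13.2 ± 1.10 FPKM, against 4.79 to 12.1) and ABCC5 (11.6 ± 2.48, against 2.05 to 8.33) and the reductase POR (10.3 ± 1.62, against 4.69 to 8.05) were higher. The reductases NQO1 (1.03 ± 0.146 FPKM, against 1.92 to 37.9) and AKR1A1 (22.4 ± 1.54, against 27.2 to 41.4) were lower, and the call for NQO1 was lost under quantile normalization and with SUDHL5 counted as 1 library. ABCB1, the pump P-glycoprotein, had 0, 0 and 0.00609 FPKM and at most 0.0101 elsewhere.

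Of 18 adhesion genes tested 3 were higher and 3 lower than in each line (16.7% each), against 9.42% and 13.4% of all genes. ITGB7, the integrin chain of gut homing, had 42.4, 49.7 and 42.9 FPKM in OCI-LY3, against 1.03 to 24.4 FPKM (median 8.11), and ITGB1 (48.0 ± 1.54, against 22.3 to 37.9) and the membrane-binding ANXA6 (94.1 ± 5.07, against 39.5 to 47.1) were higher too. S100A11, a calcium-binding protein, had 0.412, 0.117 and 0.0603 FPKM, against 0.778 to 38.4 FPKM (median 27.7). ANXA2, another membrane-binding annexin, was also lower (0.0534 ± 0.0639 FPKM, against 0.499 to 34.5). Among 15 chromatin modifiers mutated in lymphoma, 3 were higher (20%) and 0 lower than in each line, against 9.42% and 13.4% of all genes. The higher ones were SMARCA4 and the histone methyltransferases KMT2C (14.4 ± 2.35 FPKM, against 4.15 to 9.16) and KMT2D (18.4 ± 2.76, against 5.57 to 15.5). Omitting OCI-LY3 replicate 2 or HT replicate 3 ended the call for KMT2D (largest limma adjusted p = 0.0536, without HT replicate 3).

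Against single lines, the widest gaps came mainly from genes that the other line alone expressed or lacked. ACTL8, an actin relative, had at most 0.106 FPKM in OCI-LY3, against 214, 201 and 206 FPKM in HT. C11orf97 had no read in OCI-LY3, against 71.6, 67.0 and 75.8 FPKM in HT. CD9, a tetraspanin, was at 0.174, 0.00910 and 0.00939 FPKM in OCI-LY3, against 71.3 ± 7.30 in HT, 75.4 ± 4.03 in OCI-LY19 and 3.79 ± 0.203 in SUDHL5. BASP1 (66.1 ± 13.7 FPKM) and LSP1, a leukocyte actin-binding protein (75.6 ± 1.73), led with PLEK over HT (0.211 ± 0.135 and 0.862 ± 0.284). Over OCI-LY19, JCHAIN, HTR3A and CNN2, a calponin (110 ± 6.25 FPKM, against 0.404 ± 0.433), were the leading genes. In the other direction, VIM (0.121 ± 0.0891 FPKM in OCI-LY3, against 220 ± 31.9), the lymphoid precursor enzyme DNTT (0.0388 ± 0.0336, against 129 ± 42.4) and AKAP12 (0.0466 ± 0.0239, against 123 ± 6.09) marked OCI-LY19. Over SUDHL5 the leading genes were HTR3A, HMGN3 (91.9 ± 8.63 FPKM, against 0.181 ± 0.0274) and TSPAN13 (105 ± 4.52, against 0.743 ± 0.0476), and in the other direction SPINK2 (0.0164 ± 0.0283, against 70.7 ± 2.80), ALDOC (4.48 ± 1.63, against 198 ± 6.78) and CD70. The smallest of these 18 differences was -5.23 ± 0.30 on the log2 scale, for ALDOC (limma adjusted p = 4.99e-08).

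The libraries taken after 24 h of doxorubicin, which the 0 h comparison did not use, gave the following for the same lines. Of 16882 genes tested there, 11.8% were higher and 7.61% lower in OCI-LY3 than in each of the 3 other treated lines. Higher at both times were 897 genes, 60.9% of the untreated and 45.1% of the treated calls. Lower at both times were 739, 35.3% of the untreated and 57.6% of the treated calls. Calls opposite at 24 h numbered 3 among the genes higher at 0 h and 17 among those lower. Drug exposure and culture time cannot be told apart here. All 24 leading genes were called in the same direction again, with no overlap between the 3 treated OCI-LY3 libraries and the 9 others. THY1 averaged 20.3 FPKM after treatment, against at most 0.036, and HLA-C 0.738 FPKM, against 65.4 to 200. MS4A1 remained higher, at 195 FPKM against 33.1 to 142, while CD22 was reversed, at 59.9 FPKM in treated OCI-LY3 against 65.9 to 100 in the other treated libraries. The counts of many lists differed at 24 h. Of 16 MHC class II genes 1 was higher and 1 lower than in each treated line, against 6 and 1 untreated. B cell receptor genes gave 3 higher and 3 lower, against 8 and 1 untreated. Replication genes gave 11 and 0, against 6 and 2, and G1 regulators 5 and 2, against 0 and 3. For p53 targets the counts were 0 and 7, against 1 and 3, and for MYC and ribosome biogenesis 0 and 9, against 0 and 0. IRF4 averaged 0.247 FPKM in treated OCI-LY3 and IL6 had none.

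**Figure D5:**
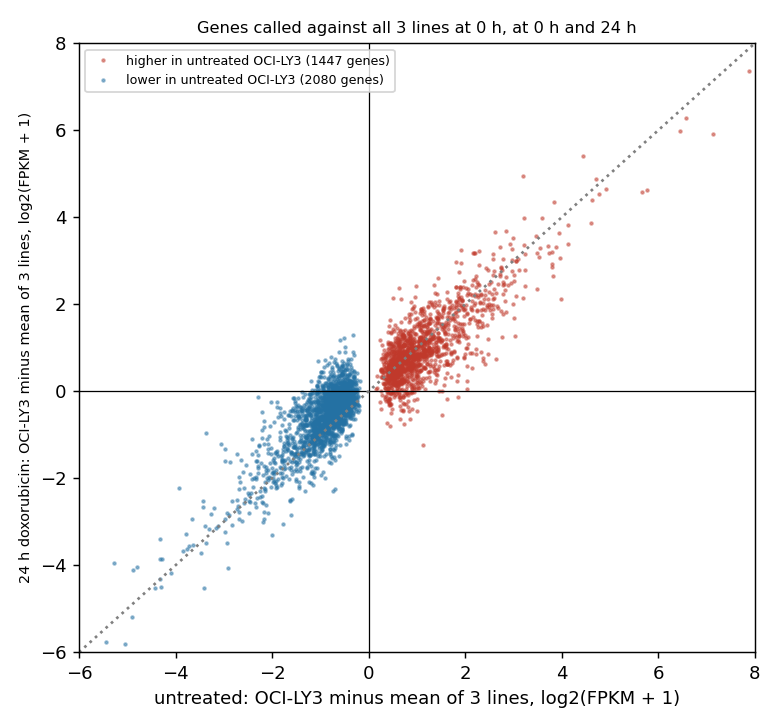
Difference between OCI-LY3 and the mean of the 3 other lines on the log2(FPKM + 1) scale, untreated (x axis) and after 24 h of 0.2 µM doxorubicin (y axis), for genes higher (red) or lower (blue) than in each line when untreated and tested at both times; the dotted line marks equal differences. Of 1447 higher genes 1375 kept a positive sign after treatment and of 2080 lower genes 1774 kept a negative one.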

How the data were processed

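Poly(A) RNA from 4 lymphoma lines was sequenced from directional libraries, per the labels' protocols. The submitters' processing notes name Trimmomatic, STAR, featureCounts and hg38. Their versions, and whether featureCounts used strand, were not stated in the labels or headers. The authors deposited FPKM values, listing 60656 genes. With GENCODE 29 lengths the deposited FPKM values gave whole reads (within 0.01 read) for 100% of values above 0 among genes of unchanged version, and these served as counts for depth and for voom. Limits for genes without reads rest on 3 reads and cover counting error only.

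The 15650 genes that reached 1 FPKM in 3 or more of the 12 untreated libraries were fitted as log2(FPKM + 1) in limma 3.58.1 (R 4.3.3) with a mean-variance trend, 4 groups of 3 and 8 residual degrees of freedom. Fold changes on this scale understate those of low genes. P-values were adjusted by Benjamini-Hochberg over all genes tested, and 0.05 was the threshold. The 12 treated libraries were fitted separately. The procedure was tested on simulated data.

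The members and gene lists were chosen with earlier results of these data known. Named were 12 higher and 12 lower genes ranked by the smallest difference from any line (all 3 libraries beyond all 9 others, mean of at least 10 FPKM in the higher group). Preset genes of each list were named whatever their values. Up to 3 genes per list and direction were named by their difference from the mean of the lines. These had to be called, with all 3 libraries beyond all 9 others. Per direction and line, 3 more were named by their difference from that line, without overlap with it. Other list members that differed from all 3 lines were named after their values were seen. Replicate numbers did not pair the samples. SOD2 was not matched. A few list members are counted but not reported by name here. Promoter sequences are from RefSeq. The deposited table of the OCI-LY19S and OCI-LY19R libraries was not used. Alternatives changed the pseudocount, filter, scaling, test, samples and terms.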

Additional observations from a re-analysis of the deposited data

How the results depend on the processing

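Under a filter at FPKM 5, which tests fewer genes, lower calls fell to 3953 against the mean of the lines, 4381 against HT, 3666 against OCI-LY19, 3537 against SUDHL5 and 1305 against all 3 lines. With the library-name suffix as a term and without SUDHL5, 2368 genes were higher and 3758 lower than in HT; the cause was not tested. Against all 3 lines, median-of-ratios scaling gave 2121 higher and 1519 lower, quantile normalization 1860 and 1435, and SUDHL5 counted as 1 library (an alternative chosen after seeing the data) 1266 and 1691. Leaving out 1 library at a time gave 3880 to 4135 higher and 6418 to 6984 lower against the mean of the lines, and 1369 to 1498 and 1863 to 2052 against all 3 lines. Replicate numbers did not pair the samples (correlations of same-numbered libraries from -0.182 to 0.313), and with the number as a replicate block 1450 genes were higher and 2065 lower than in all 3 lines. The smallest difference changed sign under quantile normalization for TENT5C (0.00459) and RIGI (0.0413) and under median-of-ratios scaling for GPI (0.0949); the cause was not tested. Of 206 calls for named genes, 161 held under every alternative, 21 were lost without some single library and 24 under another alternative alone.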
